A study of Homo sapiens with 12 samples.

Results

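The TKOv3 guide library, a pooled Cas9 knockout library of 71090 guides, holds 47 guides against 13 genes around the CDKN2A locus on chromosome 9p21. They were chosen by the position written in the guide name, a window on chromosome 9 that begins just before the first MLLT3 guide and ends at 24000000 in the library's own coordinates (genome build not given in the sources used here). The window holds 59 guides in all, and the 12 guides against CDKN2A, CDKN2B and MTAP were left out. No measured value entered this rule, which was set with earlier results of these data known.

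The screens were run in HCC1806, a triple-negative breast cancer line, and MIA PaCa-2, a pancreatic cancer line, both carrying the knockout library. The first HCC1806 screen set 2 libraries under 500 nM INX-315, an inhibitor of CDK2, beside 2 under DMSO and 1 from the start. The other HCC1806 screen set 1 library under 500 nM palbociclib, an inhibitor of CDK4 and CDK6, beside 1 under DMSO and 1 from the start. MIA PaCa-2 was screened once, with 1 library each for the start, DMSO, 500 nM INX-315 and 250 nM palbociclib. The labels place all later libraries at passage 8, the HCC1806 starts at passage 0 and the MIA PaCa-2 start at passage 1, whereas the methods describe fewer passages. The doses are those of the treatment protocol, and a palbociclib label gives another unit.

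Cas9 directed by a guide cuts both DNA strands, and the repair of such a cut slows many cells even when the gene hit is not needed. Non-targeting guides, here 142 guides against LacZ, luciferase and EGFP, have no match in a human genome and report on uncut DNA. Guides against olfactory receptor genes, here 1300 guides, cut genes that cultured tumour cells do not use and report on cutting alone. A guide whose target has been lost by deletion on every copy of the chromosome has nothing to cut. The region 9p21 is one of the most often deleted parts of cancer genomes because it carries CDKN2A, which encodes the CDK4 and CDK6 inhibitor p16INK4A, and MIA PaCa-2 is known as a line with a homozygous deletion there. The copy number of the region was not measured in these libraries, and the sources used here do not say where a deletion would end. They give no copy number for HCC1806, in which the paper overexpressed P16INK4A, so HCC1806 is not taken as a line with the region intact. The question is how guides along the region changed in abundance relative to uncut DNA.

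In order of position the members were 8 guides against MLLT3 and FOCAD (20353562 to 20862701), 27 guides against 8 genes of the interferon cluster from PTPLAD2 to IFNE (21007070 to 21481504), 4 guides against C9orf53 between MTAP and CDKN2B (21967233 to 21967409), and 8 guides against DMRTA1 and ELAVL2 (22447127 to 23762205). Each gene had 4 guides except IFNA7 with 2 and IFNA5 with 1. RefSeq lists 25 protein-coding genes from MLLT3 to ELAVL2, of which 15 had a guide in the window. The 10 without one were all interferon alpha genes, which are closely related copies of each other. RefSeq now names PTPLAD2 HACD4 and lists C9orf53 as a synonym of CDKN2A-AS1, an RNA antisense to CDKN2A. The deposited tables name each guide by position and not by its letters, so the guides are identified here by their start.

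A guide's change from start is the difference in log2(CPM + 0.5), where CPM is counts per 1000000 counts of the library, between a later library and the start library of its own screen. The median change of the 142 non-targeting guides in the same library was subtracted, so 0 is the level of uncut DNA. Library totals ran from 24946956 to 58875726 counts, and no member fell under 30 counts in any start library. Later libraries of a screen share its start, so their changes share its error.

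Several libraries stood apart from the rest. The library DMSO 1 of the HCC1806 INX-315 screen correlated with DMSO 2 at 0.54 across guides, which are not independent replicates, and its non-targeting guides had a median change of −0.38 before subtraction, while in the other 8 later libraries this was 0.34 to 0.51. It held 4 members under 30 counts and its member changes had an SD of 1.64, against 0.56 in DMSO 2. In MIA PaCa-2 the INX-315 library correlated with DMSO at 0.70, against 0.91 between DMSO and palbociclib. The fitted values below come from a model over all libraries with shared drug terms, so DMSO 1 also enters the fitted values of MIA PaCa-2.

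In MIA PaCa-2 grown in DMSO or palbociclib, the median guide of the 9p21 window sat just above the level of uncut DNA, whereas the median guide against olfactory receptor genes sat below it. The median member change was 0.13 in DMSO, 0.09 in palbociclib and −0.24 in INX-315. The corresponding olfactory receptor medians were −0.35, −0.24 and −0.29. In DMSO 28 of 47 members lay above the non-targeting median, against a background of 19.3% of all targeting guides in the library, and 27 of 47 did so in palbociclib against 24%. In the INX-315 library the count was 20 of 47 against 25.7%. Of the olfactory receptor guides, 25.4%, 32.3% and 35.3% lay above the non-targeting median in DMSO, palbociclib and INX-315. Members above the olfactory receptor median numbered 37 of 47 in DMSO, 38 in palbociclib and 26 in INX-315. For targeting guides outside the window and the olfactory receptor genes the shares were 40.3%, 38.5% and 37.4%. For non-targeting guides they were 66.2%, 69.7% and 59.2%. By median the INX-315 library showed the members nearer to the olfactory receptor level than the other libraries of this line did. By mean it did not, with members at −0.10, non-targeting guides at −0.10 and olfactory receptor guides at −0.34.

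In HCC1806 the member median lay between the levels of uncut and cut DNA in every library except DMSO 1. It was −0.13 in DMSO and −0.08 in palbociclib of the palbociclib screen, and −0.23 for DMSO 2, −0.18 for INX-315 1 and −0.13 for INX-315 2 of the INX-315 screen. The olfactory receptor medians in these libraries were −0.26, −0.28, −0.42, −0.38 and −0.38 in the same order. Between 18 and 21 of 47 members lay above the non-targeting median in these 5 libraries, against backgrounds of 25.9%, 23.2%, 21.8%, 21% and 20.2%. Of the olfactory receptor guides, 33.3%, 30.2%, 26.6%, 28.8% and 27.1% did so, in the same order. DMSO 1 had a member median of 0.22, with 25 of 47 above the non-targeting median against 39.1% of all targeting guides. There 44.8% of olfactory receptor guides lay above the non-targeting median.

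Averaged over the libraries of a line, the member median of HCC1806 was −0.09 ± 0.16 (SD, n = 6 libraries) and that of MIA PaCa-2 was −0.01 ± 0.20 (SD, n = 3). The mean was −0.15 in HCC1806 without DMSO 1 and 0.11 in MIA PaCa-2 without INX-315. The values of the lines overlapped. By median the MIA PaCa-2 INX-315 library was below every HCC1806 library, but only just, at −0.238 against −0.234 in DMSO 2. By mean over guides it stood at −0.10, within the HCC1806 range of −0.36 to −0.03. Olfactory receptor guides stood at −0.32 ± 0.09 and −0.29 ± 0.06, and the remainder of chromosome 9 at −0.50 ± 0.06 and −0.51 ± 0.06. On both sides of the window the medians were lower. The 62 guides of 17 genes with starts within 5 Mb below the window had means of library medians of −0.40 ± 0.12 (HCC1806) and −0.38 ± 0.13 (MIA PaCa-2). For the 45 guides of 12 genes from the window's upper end to 29000000 these were −0.23 ± 0.14 and −0.31 ± 0.07. No test was made over guides of a locus, since guides are not replicates of a condition.

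In the DMSO and palbociclib libraries of MIA PaCa-2 the middle of the window had a higher median than its ends, and in the INX-315 library a lower one. By mean over guides the middle was higher in the INX-315 library too, at −0.06 against −0.23 for the ends. From PTPLAD2 to DMRTA1, a stretch of 35 guides and 10 genes that was marked off after the values were seen and whose counts are therefore a description only, the median change was 0.17 in DMSO and 0.19 in palbociclib. In DMSO 25 of these 35 guides lay above the non-targeting median, 31 above the olfactory receptor median, and 0 were below −1. In palbociclib 22 and 30 of 35 did so. The INX-315 library gave a median of −0.24, with 14 and 20 of 35. Of targeting guides outside the window and the olfactory receptor genes, 19.2%, 23.9% and 25.5% lay above the non-targeting median in DMSO, palbociclib and INX-315. Above the olfactory receptor median lay 40.3%, 38.5% and 37.4% of them, and 24.4% were below −1 in DMSO. Among olfactory receptor guides 25.4%, 32.3% and 35.3% lay above the non-targeting median in these libraries. Below −1 in DMSO were 11.8% of olfactory receptor guides and 10.6% of non-targeting guides. The 12 guides of MLLT3, FOCAD and ELAVL2 at both ends of the window had medians of −0.34 in DMSO, −0.06 in palbociclib and −0.13 in INX-315, with 3, 5 and 6 of 12 above the non-targeting median. In HCC1806 the stretch from PTPLAD2 to DMRTA1 had medians from −0.18 to −0.06 in the 6 libraries.

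The interferon cluster carries the type I interferon genes, which encode secreted antiviral proteins that tumour cells in culture do not need for growth. Its 27 guides had a median of 0.15 in MIA PaCa-2 DMSO, 0.09 in palbociclib and −0.24 in INX-315. Above the olfactory receptor median lay 24 of 27 guides in DMSO, 24 in palbociclib and 15 in INX-315, and none of the 27 was below −1 in DMSO or palbociclib. Of targeting guides outside the window and the olfactory receptor genes, 40.3%, 38.5% and 37.4% lay above that median. Below −1 were 24.4% of them in DMSO and 20.8% in palbociclib. The corresponding shares were 11.8% and 9.3% of olfactory receptor guides, and 10.6% and 9.2% of non-targeting guides. Cut and uncut controls thus lay close together on this measure. In HCC1806 the cluster's median ran from −0.34 to −0.13 over the 6 libraries, all below uncut DNA. Its mean of library medians was −0.24 ± 0.07 (SD, n = 6) for HCC1806, while for MIA PaCa-2 it was −0.0011 ± 0.21 (SD, n = 3), and the INX-315 library of MIA PaCa-2 lay within the HCC1806 range.

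IFNB1, which encodes interferon beta, was the only gene of the cluster whose medians in MIA PaCa-2 DMSO and palbociclib both lay above those of every HCC1806 library. With DMRTA1 this held for 2 of 13 member genes, against 15% of all 18053 genes, and with the MIA PaCa-2 INX-315 library included it held for 0, against 9.44%. Its median over 4 guides was −0.40 and −0.22 in DMSO and palbociclib of the HCC1806 palbociclib screen, and −0.95, −0.77, −0.35 and −0.73 in DMSO 1, DMSO 2, INX-315 1 and INX-315 2. In MIA PaCa-2 it was 0.23 in DMSO, 0.48 in palbociclib and −0.54 in INX-315. All 6 HCC1806 libraries were below 0, and the MIA PaCa-2 INX-315 library fell among them. The guide at 21077829 had 798 counts at the start of the HCC1806 palbociclib screen, 333 in DMSO and 748 in palbociclib. Its counts in the INX-315 screen were 720 at the start, 228 for DMSO 1, 533 for DMSO 2, 721 for INX-315 1 and 645 for INX-315 2. In MIA PaCa-2 it went from 1644 counts at the start to 3433 under DMSO, 2702 under palbociclib and 1670 under INX-315. Against non-targeting guides its fitted log2 change in HCC1806 was −1.19 (SE 0.47, edgeR adjusted p = 0.236), which did not pass the threshold.

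IFNA2 and IFNA7, which encode interferon alpha subtypes, were above uncut DNA in all 3 MIA PaCa-2 libraries. IFNA2 had medians of 0.26 in DMSO, 0.37 in INX-315 and 0.12 in palbociclib, and its HCC1806 libraries ran from −0.23 to 0.35, so the lines overlapped. IFNA7 had 0.20, 0.43 and 0.11 in MIA PaCa-2 and −1.55 to 0.16 in HCC1806. Its guides start 3 bases apart, at 21201975 and 21201978, and so share a target site. In the MIA PaCa-2 INX-315 library they differed by 2.25 on the log2 scale, against 0.31 in DMSO. The IFNA2 guide at 21385123 was among the 3 highest members in MIA PaCa-2 by fitted change, at 0.63 (SE 0.84, edgeR adjusted p = 1), which became 0.28 without the HCC1806 library DMSO 1, and it starts within 2 bases of the guides at 21385121 and 21385122.

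The other interferon genes stood on either side of uncut DNA. IFNE, which encodes an interferon of epithelia, had medians of −0.09, −0.09 and −0.18 in DMSO, INX-315 and palbociclib of MIA PaCa-2, the narrowest range of any member gene there, and −0.43 to 0.39 in HCC1806. IFNW1, interferon omega, had −0.24 in DMSO, 0.58 in INX-315 and −0.08 in palbociclib of MIA PaCa-2, and −0.79 to 0.45 in HCC1806. The only guide against IFNA5 gave −0.44, −0.70 and 0.09 in the MIA PaCa-2 libraries in that order, and −0.74 to 0.50 in HCC1806. For all 3 genes the ranges of the lines overlapped.

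The cluster also holds genes that encode no interferon. PTPLAD2, a member of the family of dehydratases that lengthen fatty acids, had medians of 0.12 in DMSO, −0.50 in INX-315 and 0.52 in palbociclib of MIA PaCa-2. In HCC1806 it stood at 0.13 and 0.32 in DMSO and palbociclib of the palbociclib screen, and at 0.53, −0.77, −0.49 and −0.36 in DMSO 1, DMSO 2, INX-315 1 and INX-315 2, so the screens of this line differed in sign apart from DMSO 1. Its guide at 21026607 had the smallest p of all members in HCC1806, with a fitted change of −0.99 (SE 0.36, edgeR adjusted p = 0.190).

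KLHL9 encodes an adaptor of the CUL3 ubiquitin ligase that acts in mitosis. Its medians were 0.13 in DMSO, −0.13 in INX-315 and 0.08 in palbociclib of MIA PaCa-2, and −0.73 to 0.40 in HCC1806. The guides at 21334155 and 21334156, on the same strand and 1 base apart, shared a target site but not their counts. In the HCC1806 palbociclib screen the first went from 972 counts at the start to 1486 in DMSO and 1700 in palbociclib. The second went from 362 counts to 43 in DMSO and 229 in palbociclib. From 460 counts at the start of the INX-315 screen the second went to 58 under DMSO 1, 485 under DMSO 2, 291 under INX-315 1 and 227 under INX-315 2, with the DMSO 2 count the highest of these. Their changes lay from 0.74 (DMSO 2) to 3.25 (DMSO of the palbociclib screen) apart in the HCC1806 libraries. In MIA PaCa-2 they lay 0.28 apart in DMSO, 1.26 in INX-315 and 1.06 in palbociclib, and here the second was the higher of the pair, so the gaps of the lines overlapped in size. The second was the lowest member in HCC1806, with a fitted change of −1.95 (SE 0.75, edgeR adjusted p = 0.224). The fitted difference between the lines was 2.40 (SE 1.23, edgeR adjusted p = 1), and no member had a smaller p for this difference.

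C9orf53 lies inside the stretch from MTAP to CDKN2B, the centre of the region. Its median was above uncut DNA in all 6 HCC1806 libraries, at 0.12 and 0.31 in DMSO and palbociclib of the palbociclib screen and 1.11, 0.55, 0.54 and 0.62 in DMSO 1, DMSO 2, INX-315 1 and INX-315 2. It was the only member gene above 0 in all of them, 1 of 13 against 0.355% of all genes. In MIA PaCa-2 it was 0.37 in DMSO, −0.26 in INX-315 and 0.29 in palbociclib, so the lines overlapped. The guide at 21967351 stood out in DMSO 1, where its count was 1227 after 256 at the start, against 388 for DMSO 2, 403 for INX-315 1 and 347 for INX-315 2. Its fitted change in HCC1806 was 1.31 (SE 0.70, edgeR adjusted p = 0.412), and 0.59 without DMSO 1. In MIA PaCa-2 the same guide went from 336 counts to 356 in DMSO, 144 in INX-315 and 125 in palbociclib, whereas the guide at 21967269 went from 1091 to 2247, 2203 and 1336.

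For position only, the genes next to C9orf53 gave the following medians, which rest on 4 guides each and are not members. MTAP, a methionine salvage enzyme, was below 0 in all 6 HCC1806 libraries, from −1.56 to −0.39, and stood at −0.02, −0.27 and −0.11 in DMSO, INX-315 and palbociclib of MIA PaCa-2. The line ranges of MTAP did not overlap, with MIA PaCa-2 above HCC1806 as for 9.44% of all genes. CDKN2A stood at 0.37, 0.42 and 0.07 in the MIA PaCa-2 libraries and from −0.75 to 0.21 in HCC1806. CDKN2B stood at −0.12, −1.68 and −0.43 in MIA PaCa-2 and from −1.08 to 0.33 in HCC1806.

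DMRTA1, a gene of the DM-domain transcription factors, lies beyond CDKN2B. Its medians in MIA PaCa-2 were 0.29 in DMSO, −0.01 in INX-315 and 0.52 in palbociclib. In HCC1806 they were 0.19 and 0.28 in the palbociclib screen, and −0.73, 0.06, −0.01 and 0.11 in DMSO 1, DMSO 2, INX-315 1 and INX-315 2, close to uncut DNA outside DMSO 1. The guide at 22451671 went from 1016 counts at the MIA PaCa-2 start to 2236 in DMSO, 1917 in INX-315 and 1721 in palbociclib.

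At the ends of the window the picture was less even. MLLT3, which encodes a subunit of the super elongation complex that also reads acylated histones, was below uncut DNA in all 3 MIA PaCa-2 libraries, at −0.58 in DMSO, −0.59 in INX-315 and −0.24 in palbociclib. In HCC1806 it ran from −0.41 to −0.06 in 5 libraries and stood at 1.31 in DMSO 1. Its guide at 20413882 went from 1115 counts at the MIA PaCa-2 start to 580 in DMSO, 354 in INX-315 and 560 in palbociclib, and its fitted change there was −1.13 (SE 0.82, edgeR adjusted p = 1). The guide at 20363476 had a fitted change of −1.77 (SE 0.83, edgeR adjusted p = 0.338) in HCC1806 and −0.57 (SE 1.04) in MIA PaCa-2. In HCC1806 the MLLT3 guide at 20620756 had the highest fitted value of the members, 1.38 (SE 0.88, edgeR adjusted p = 0.513), which became 0.37 without DMSO 1, under C9orf53 21967351. It had 1746 counts in DMSO 1 after 227 at the start, against 322 in DMSO 2. FOCAD, a protein that stabilises the SKI complex of cytoplasmic RNA decay, had medians of −0.14, 0.31 and 0.28 in DMSO, INX-315 and palbociclib of MIA PaCa-2, and from −0.58 to −0.29 in HCC1806 except for 1.01 in DMSO 1.

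Within FOCAD the guides did not move together in MIA PaCa-2. The guides at 20764967 and 20820374 had the 2 highest fitted changes of the members in this line, 0.80 (SE 1.10) and 1.28 (SE 1.22), both with an edgeR adjusted p of 1. For the guide at 20820374 the measured changes were lower, at 0.41 in DMSO, 0.30 in INX-315 and 0.66 in palbociclib, and without the HCC1806 library DMSO 1 the fitted value was 0.53. The guide at 20764967 went from 476 counts to 1106 in DMSO, 325 in INX-315 and 1022 in palbociclib. ELAVL2, a neuronal RNA-binding protein of the HuR family, had medians of −0.11, −0.41 and 0.02 in MIA PaCa-2 and from −0.51 to 0.05 in HCC1806. The guide at 23692621 was among the 3 highest in HCC1806, with a fitted change of 0.83 (SE 0.66) that became 0.25 without DMSO 1. The guide at 23701593 was the lowest member in MIA PaCa-2, with 556 counts at the start, 298 in DMSO, 275 in INX-315 and 71 in palbociclib, with a fitted change of −1.71 (SE 0.84, edgeR adjusted p = 1). Just outside the window, SLC24A2 stood at 0.18, 0.28 and 0.19 in DMSO, INX-315 and palbociclib of MIA PaCa-2 and IZUMO3 at −0.61, 0.11 and −0.28.

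The members also differed by the strand their guide matched, a feature that the choice of members did not use. In MIA PaCa-2 DMSO the 20 guides on the plus strand had a median of 0.16 and the 27 on the minus strand 0.13. In HCC1806 DMSO 2 these were −0.05 and −0.36. Plus-strand guides had the higher median in all 9 later libraries, and no test was made because the strands hold different genes and sites.

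A model across all guides and all 12 libraries tested each guide for a change from the start to DMSO in each line. It used edgeR's quasi-likelihood test, a term for each screen, additive terms for the drugs, and library sizes set on the non-targeting guides. All 47 members were among the 70360 guides with at least 30 counts in each start. In HCC1806 0 of 47 members passed an adjusted p of 0.05 in either direction, against 4.15% of all tested guides that were lower and 0% that were higher. At an unadjusted p under 0.05, 3 members were lower, against 16.2% of all guides, and 0 were higher, against 0.0924%. They were the guides of PTPLAD2, KLHL9 and IFNB1 given above by fitted value. Without DMSO 1 edgeR called 2 members lower, of FOCAD and PTPLAD2, against 12.8% of all guides, and 0 higher, against 0.0469%. Without DMSO 2 it called 1, of KLHL9, against 2.38%. In MIA PaCa-2 edgeR called 0 members and 0% of all guides in either direction, and at an unadjusted p under 0.05 it called 0 members, against 4.53% of guides lower and 0.00853% higher. For the difference between the lines 0 members and 0% of all guides passed, and at an unadjusted p under 0.05 0 members did, against 0.475% of guides lower and 1.69% higher in MIA PaCa-2. DESeq2 also called 0 members in these contrasts, while over all guides it called 6978 lower in HCC1806, 284 lower in MIA PaCa-2 and 262 higher in MIA PaCa-2 than in HCC1806.

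Counts summed per gene gave the same picture, with 0 of 13 member genes called in HCC1806, against 11.1% of 18049 genes lower. MIA PaCa-2 has 1 library per arm, and in it edgeR called 0 guides of the whole library, so the absence of a call is no measure of how near a member was to uncut DNA. The labels name separate libraries but not separate cultures, and the p-values then measure the spread between libraries, which may be technical.

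Genes that act with the members were read in the same fit, in which 4.15% of all guides were lower in HCC1806 and none was called where drug effects were fitted separately in each line or where only DMSO and start libraries entered. Of 20 guides against 5 partners of FOCAD in RNA decay and ribosome rescue, 3 were lower in HCC1806, all of them against WDR61, a SKI complex subunit. No guide against SKIV2L, TTC37, PELO or HBS1L was called. SKIV2L and TTC37, also SKI complex subunits, had medians of −0.91 and −0.51 in HCC1806 DMSO 2. In MIA PaCa-2 DMSO these were −0.93 and −0.24. PELO, which rescues stalled ribosomes with HBS1L, had a median change of −2.94 in HCC1806 DMSO 2 and −2.99 in MIA PaCa-2 DMSO. Of 32 guides against 8 partners of MLLT3, 3 were lower in HCC1806, 1 against ELL and 2 against the elongation kinase CDK9. None of 27 tested guides against 7 genes of the interferon receptor pathway was called in HCC1806, and none of 12 against the other HuR family members. For CUL3 ligase partners of KLHL9 1 of 10 was called, against RBX1, and for DMRT family genes 1 of 16, against DMRTA2. In MIA PaCa-2 no guide of these lists was called.

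A further list holds the genes linked to MTAP loss, PRMT5 with its cofactors WDR77 and CLNS1A and the methionine enzyme MAT2A among them. Of its 20 guides 8 were lower in HCC1806, against 4.15% of all guides, 2 against PRMT5, 3 against WDR77, 1 against CLNS1A and 2 against MAT2A, and 0 were called in MIA PaCa-2. The median of its gene medians was −3.96 in HCC1806 DMSO 2 and −2.96 in MIA PaCa-2 DMSO. No difference between the lines was called for any guide by edgeR, as given above.

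The drugs were compared with DMSO last. In the HCC1806 INX-315 screen, the comparison with 2 libraries on each side, edgeR called 0 of 47 members and 0% of 70427 guides in either direction. At an unadjusted p under 0.05 it called 0 members, against 1.96% of guides lower and 0.371% higher. With DMSO 1 as the only control it called 16 members lower, against 33.1% of all guides, and 19 higher, against 36%, near the background in both directions. With DMSO 2 as the only control it called 0 lower, against 5.3%, and 1 higher, against 3.78%. DESeq2, which gave an adjusted p to 3522 guides only, called 313 of them lower and 0 higher, and 0 of the 9 members among them. Gene scores were also computed with DrugZ, which sums the log2 ratios of a gene's guides, each divided by the spread seen at that level of DMSO counts, and standardises the sum to a normZ. No member gene passed a normZ of −2 or 2 in any of the 4 comparisons, against backgrounds of 2.77%, 2.56%, 2.85% and 2.66% of 18053 genes under −2 and 1.46%, 1.99%, 1.63% and 1.77% over 2, in the order HCC1806 INX-315, HCC1806 palbociclib, MIA PaCa-2 INX-315 and MIA PaCa-2 palbociclib. The highest member was IFNW1 with INX-315 in HCC1806, at 1.88, and it stood at −0.96, 1.49 and −0.59 in the other comparisons. The score of 1.88 takes in INX-315 1 against DMSO 1, where log2 differences of the IFNW1 guides ran from 0.21 to 3.35. For INX-315 2 against DMSO 2 they ran from −0.50 to 0.65, and the guide with 3.35 had 0.23. IFNB1 had the lowest normZ of the members, −1.71 under INX-315 in MIA PaCa-2, beside 1.17, 0.77 and 0.43 elsewhere. C9orf53 stood at −1.62 with palbociclib in MIA PaCa-2. The MIA PaCa-2 comparisons share a DMSO library, and scores take guides as replicates, so no p is given for them.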

How the data were processed

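The authors amplified guides from genomic DNA by PCR, removed adapters with Trim Galore and counted guides with MAGeCK (5.9 in the submitters' processing notes). The deposited counts were used, and the authors' normalized signal, which is each library's counts times 1 factor, was not used further. All columns were matched to a sample. Gene names came from guide names. All 16 gene names of the window matched RefSeq (GRCh38.p14), which was used for names and gene order only.

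Guides were tested with edgeR 4.0.16 (limma 3.58.1, R 4.3.3), and DESeq2 1.42.0 as an alternative. The model had 7 coefficients and 5 residual degrees of freedom, with Benjamini-Hochberg adjustment over all tested guides and a threshold of 0.05. A guide's SE was taken from its fitted change and F statistic. DrugZ was rewritten in Python 3.11.15 (scipy 1.17.1, pandas 2.3.3, numpy 2.4.6) with a pseudocount of 5, 10000000 counts per library, and a window of 1000 guides in steps of 25. In HCC1806 it set each INX-315 library against the DMSO library of the same number. The scripts were tested on simulated data. PCR reads carried no molecular identifiers, and a count of 0 allows 3 counts, for counting error only. No libraries were alike within sampling noise.

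Every member gene was named, with the 3 lowest and 3 highest guides per line among the single guides and others picked for their values. Pathway lists came from textbook knowledge. Members, lists and tests were chosen with earlier results of these data known. The alternatives were other scalings, filters, pseudocounts and drug terms, each library left out and the replicate number as a block.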

Additional observations from a re-analysis of the deposited data

How the results depend on the processing

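The number of members called lower in HCC1806 was 0 in most settings and ranged from 0 to 2 when each library was left out. Without DMSO 1 the guides of FOCAD at 20820374 and PTPLAD2 at 21026607 passed (12.8% of all guides), and without DMSO 2 the KLHL9 guide at 21334156 passed (fitted change −2.76, edgeR adjusted p = 0.0395, 2.38% of all guides). For INX-315 against DMSO in HCC1806 the counts of members ranged from 0 to 16 lower and from 0 to 19 higher, both extremes without DMSO 2, where 33.1% and 36% of all guides were called, and which leaves DMSO 1 alone as control, whose spread is then taken to equal that of the INX-315 side. Without DMSO 1 the IFNW1 guide at 21140975 was the 1 member called higher. A DrugZ pseudocount of 20 put 1 member gene, IFNW1, past a normZ of 2 in HCC1806 with INX-315, a score that also takes in DMSO 1. Relative to olfactory receptor guides the member median became 0.23 in HCC1806 and 0.29 in MIA PaCa-2. These medians thereby turned from below to above 0, as did those of the interferon cluster (0.07 in HCC1806, 0.29 in MIA PaCa-2). The same held for MLLT3 with FOCAD (0.24 in HCC1806, 0.08 in MIA PaCa-2) and for DMRTA1 with ELAVL2 in HCC1806 (0.14). No member was called in the main settings, so there was no called value whose sign could change.

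Over all guides, calls lower in HCC1806 numbered 2921, against 864 with TMM over all guides, 1357 with TMM over olfactory receptor guides, 963 with DESeq2 size factors, 6978 with DESeq2, 0 with drug effects fitted separately in each line, 0 with DMSO and start libraries only, and 0 to 8989 with a library left out (0 without the MIA PaCa-2 DMSO library, 336 without the palbociclib-screen DMSO library, 8989 without DMSO 1). The INX-315 comparison with the replicate number as a block called 0 members lower and 0 higher, and 16 guides lower and 0 higher over the library. Same-numbered libraries did not deviate together (r = −0.0078 over 70427 guides), so the numbers were not taken as pairing in the edgeR test. DrugZ pairs by number by default, and its main scores were computed that way. Without this pairing 0 member genes passed a normZ of −2 or 2 in HCC1806 with INX-315. The single libraries of MIA PaCa-2 limit what its values can show.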
